A study of Mus musculus with 77 samples.

Results

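The 42 genes described here are a list of cell cycle genes taken from the 52636 genes of the count tables. They comprise 24 genes of mitosis and 18 genes of DNA replication, listed by name and measured in all 5 tables. A cell that divides first copies its DNA, for which E2F transcription factors switch on genes of the replicative helicase, of nucleotide supply and of the replication clamp. It then separates its chromosomes, for which the MuvB complex with B-Myb and FoxM1 switches on cyclins, kinases, kinetochore and spindle genes, while in resting cells the DREAM complex keeps both sets low. In the adult brain, oligodendrocyte precursor cells are known as cells that go on dividing, whereas endothelial cells, pericytes and astrocytes divide rarely and can re-enter the cycle after injury.

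Promoter sequences of the 5 members whose values are given in every comparison are shown first, because the mitosis and replication genes carry different short motifs there. Each line gives the 150 bases before the RefSeq gene start on GRCm38.p6, 5′ to 3′ on the strand of the gene. Capitals mark the cell cycle homology element CHR (TTTGAA), the CCAAT box (CCAAT) and an E2F motif (TTTNNCGC), each on either strand.
Mki67 (chr7:135716380-135716529, - strand): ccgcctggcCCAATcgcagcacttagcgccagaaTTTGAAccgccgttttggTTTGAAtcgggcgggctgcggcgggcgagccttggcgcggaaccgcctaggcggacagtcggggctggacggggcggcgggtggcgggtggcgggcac
Top2a (chr11:99024190-99024339, - strand): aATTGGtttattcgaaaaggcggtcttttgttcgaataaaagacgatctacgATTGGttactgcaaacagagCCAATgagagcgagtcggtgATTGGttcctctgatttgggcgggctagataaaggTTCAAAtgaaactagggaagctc
Cdk1 (chr10:69352913-69353062, - strand): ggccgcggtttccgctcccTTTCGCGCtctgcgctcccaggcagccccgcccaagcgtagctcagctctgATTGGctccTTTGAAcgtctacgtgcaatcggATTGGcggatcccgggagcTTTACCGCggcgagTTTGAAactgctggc
Mcm5 (chr8:75109359-75109508, + strand): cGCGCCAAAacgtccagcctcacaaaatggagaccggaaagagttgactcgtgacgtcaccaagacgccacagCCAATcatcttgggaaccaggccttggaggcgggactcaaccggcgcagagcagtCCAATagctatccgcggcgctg
Rrm2 (chr12:24708104-24708253, + strand): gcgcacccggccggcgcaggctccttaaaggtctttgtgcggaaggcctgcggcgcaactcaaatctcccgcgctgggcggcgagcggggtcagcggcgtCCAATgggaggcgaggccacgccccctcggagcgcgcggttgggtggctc
Mki67, Top2a and Cdk1 are mitosis genes and hold at least 1 CHR in these stretches, whereas Mcm5 and Rrm2 are replication genes and hold none. Mcm5 and Cdk1 also hold E2F letters. Promoters were found for 35 of the 42 members, in windows of 300 bases that reach 50 bases past the start. CHR letters stood in 15 of 20 mitosis genes (75%) and in 2 of 15 replication genes (13.3%), against 20.2% of 27025 genes. The E2F letters stood in 1 of 20 mitosis genes (5%) and in 8 of 15 replication genes (53.3%), against 5.93% of all genes. CCAAT letters, which many promoters carry, stood in 85%, 66.7% and 41.1% of them. No match overlaps another in the 5 stretches above, and a match of letters is not a measured binding site. No promoter entry was matched for Ccna2, Aurkb, Kif20a, Tpx2, Mcm4, Gins2 and Ccne2.

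RNA of mouse cerebral white matter had been sequenced as bulk libraries that the labels assign to a cell type and to control or stroke. The EC groups held 5 control and 7 stroke libraries. Pericyte groups held 7 and 8, and OPC and astrocyte groups 6 each. For microglia there were 8 libraries labelled P2 control, 9 labelled P2 stroke and 9 labelled P4 stroke. The labels give no strain, genotype, age, stroke model or time after stroke, do not expand EC, OPC, P2 or P4, and name no method of cell isolation. Nothing says that libraries came from separate animals, so the p-values reflect variation among libraries that may be technical only.

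Depth and purity bear on all values that follow. Totals ran from 43367636 to 142944063 counts in the EC, pericyte, OPC and astrocyte libraries and from 5530125 to 11770194 in microglia. The 42 members held 15660 to 109479 counts per library in those 4 tables and 139 to 18280 in microglia. Levels are given in CPM, the usual scaling of counts to a common library size, after TMM scaling of the totals, and levels of different tables were scaled separately. Each table was richest in markers of its own type among the 5 tables, with 1 pericyte control library low (4337 CPM, group median 11977 CPM). Sums of mature oligodendrocyte markers nevertheless exceeded those of the labelled type in EC (8939 to 20818 against 2245 to 5307 CPM) and in OPC libraries (57303 to 112710 against 11644 to 14869 CPM). In pericyte libraries their mean was also above that of the pericyte markers, at 34043 ± 14127 against 12432 ± 4626 CPM in control (n = 7) and 16389.8 ± 8750.4 against 12742 ± 3389 CPM in stroke (n = 8). Neuron markers summed to 4553 to 9199 CPM in EC libraries, and astrocyte markers there to 2416 to 6458 CPM. In EC controls the astrocyte sum was 3323 ± 912 CPM and the endothelial sum 2916 ± 645 CPM (SD, n = 5). In EC stroke libraries these sums were 4111 ± 1238 and 4083 ± 703 CPM (n = 7). The marker lists were not disjoint, since Pdgfra stood in both the fibroblast and the OPC list and Cspg4 in both the pericyte and the OPC list. Pericyte control 11 and 15 were more alike than any other pair of pericyte libraries (mean chi-square per gene 14.9, next pair 84.1), and summing them left the count of pericyte members called at 38. The labels do not say whether these libraries share a source, and n = 7 counts them separately.

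Before any comparison, the members differed widely between the cell types. Among control groups of the 4 deeper tables, OPC had the highest mean of 39 members and EC the lowest of all 8 groups for 35. The 24 mitosis genes summed to 448 ± 57.3 CPM (SD, n = 6) in OPC controls, 114 ± 36.8 CPM (n = 7) in pericytes, 58.5 ± 24.3 CPM (n = 6) in astrocytes and 31.1 ± 3.24 CPM (n = 5) in EC. The OPC libraries did not overlap those of any other type in this sum, while the astrocyte range (32.5 to 103.7 CPM) overlapped both the EC range (26.5 to 34.2 CPM) and the pericyte range (60.8 to 182.8 CPM). The 18 replication genes differed less, at 573 ± 58.5 CPM in OPC and 224 ± 6.81 to 266 ± 17.6 CPM in the other types. E2f1 and Ccne1, which drive entry into replication, ran the other way, with means of 30.3 ± 6.87 and 24.3 ± 5.41 CPM in EC controls against 9.35 ± 1.69 and 6.66 ± 0.587 CPM in OPC controls. On a scale per kilobase of exon, Pcna, the sliding clamp of DNA polymerase, had the highest mean level of the members in each of the 8 groups of these 4 tables (17.1 to 42.6 CPM per kilobase).

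**Figure D1:**
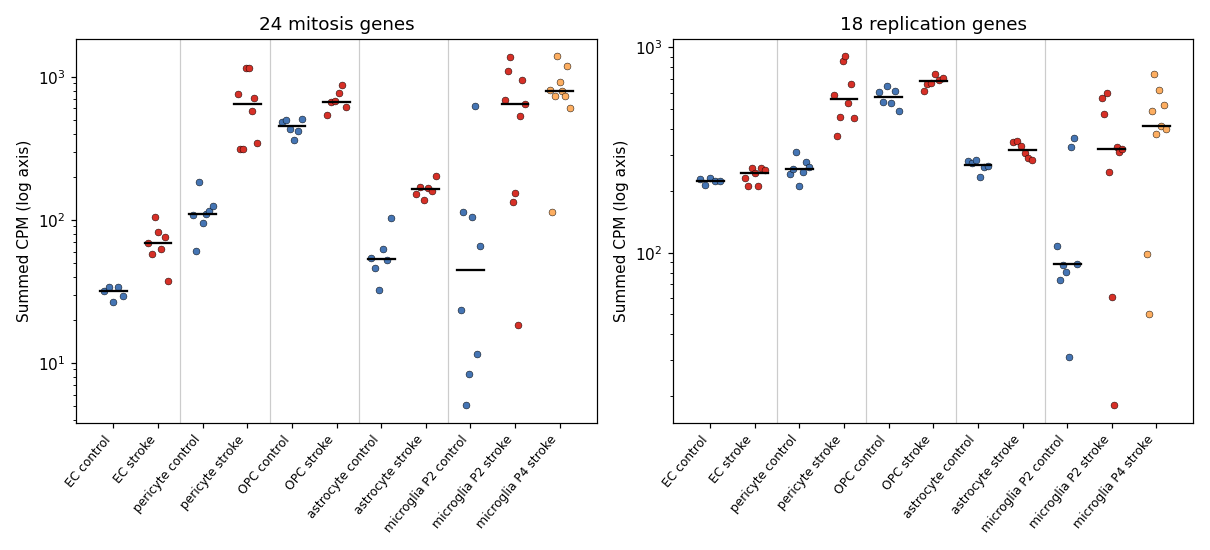
Summed CPM (log axis) of the 24 mitosis genes (left) and the 18 replication genes (right) in every library, with blue points for control, red for stroke and orange for P4 stroke, and a bar at each group's median. The mitosis sum of pericyte stroke libraries ran from 314 to 1159 CPM and did not overlap that of pericyte controls (60.8 to 182.8 CPM).

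After stroke, members were called higher in EC, pericyte, OPC and astrocyte libraries and none was called lower. Log2 fold changes were above 0 for all 42 members in pericytes, 40 in OPC, 40 in astrocytes and 38 in EC. Called means an adjusted p under 0.05 in edgeR's quasi-likelihood test, adjusted by Benjamini-Hochberg over all genes tested. In pericytes 38 of 42 members were called higher (background 15.9% of 21694 genes called higher), in OPC 28 (background 11.7% of 18167), in astrocytes 23 (background 5.63% of 18796) and in EC 10 (background 3.57% of 20995). Ccna2, Ccnb2, Cdk1, Nuf2, Plk1, Top2a and Ube2c were called in all 4 types. Another 12 members were called in 3 types, 14 in 2 and 7 in 1, and Ccne2, a cyclin of the start of replication, and Mcm4, a helicase subunit, in none. The log2 fold change was largest in pericytes for 40 members and in astrocytes for Bub1b and Cdc6. In bulk libraries a larger share of dividing cells, of the labelled type or of other types, and more of these RNAs per cell cannot be told apart.

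**Figure D2:**
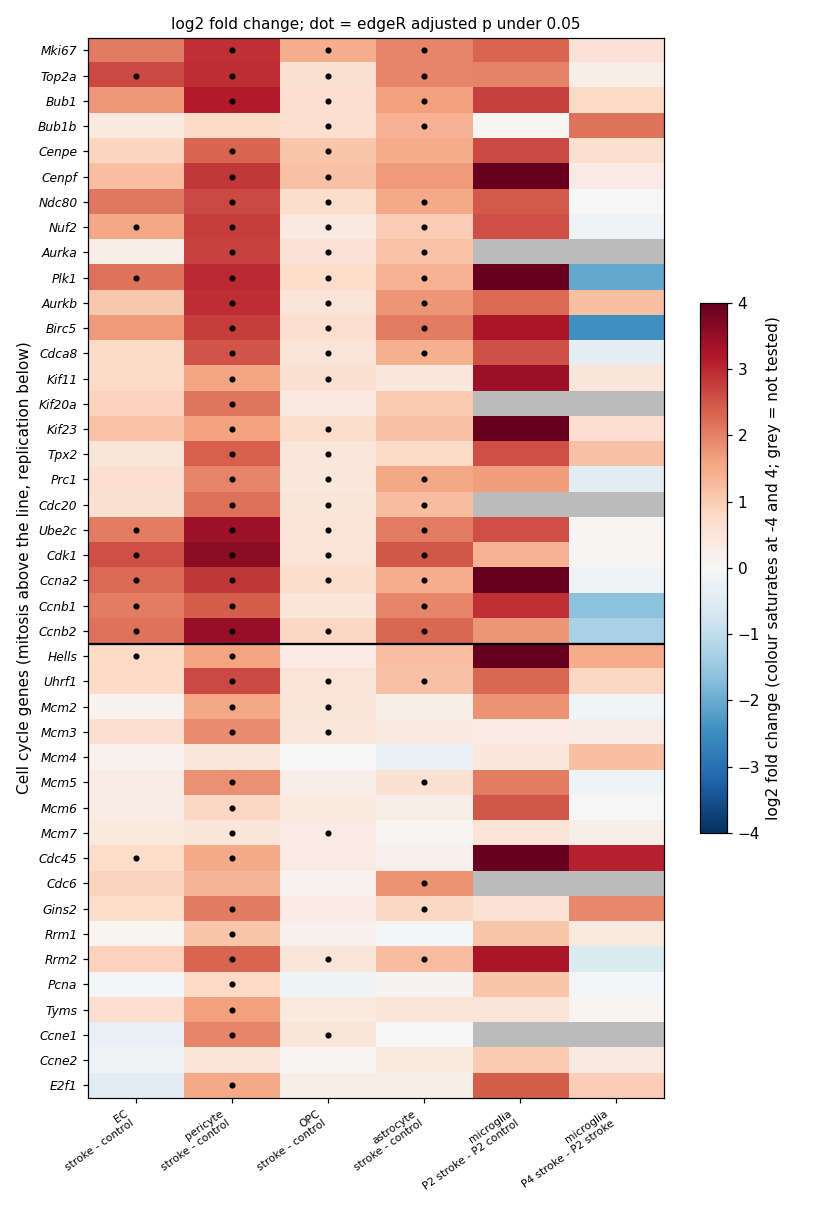
log2 fold change of the 42 members (rows, mitosis above the line and replication below) in the 6 comparisons (columns), with a dot where the edgeR adjusted p was under 0.05 and grey where the member did not pass the filter on low counts. Dots fill 38 of 42 rows in pericytes and are absent from both microglia columns.

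The pericyte libraries gave the most calls. Mitosis members were called in 23 of 24 cases with a median log2 fold change of 2.73, and replication members in 15 of 18 with 1.54, beside a median of -0.08 over all genes tested. Mki67, the proliferation marker that coats mitotic chromosomes, stood at 0.588, 4.28 and 8.23 CPM (lowest, median and highest of 7 control libraries) and at 13.5, 27.0 and 60.4 CPM in 8 stroke libraries (log2 fold change 2.92, SE 0.49, adjusted p = 0.000634). Top2a, the topoisomerase that untangles sister chromatids, stood at 3.39, 6.18 and 11.8 CPM in control and 26.2, 52.1 and 84.0 CPM in stroke libraries (log2 fold change 2.95, SE 0.34, adjusted p = 3.51e-05). For both genes every stroke library lay above every control library, and libraries 7 and 10 held the highest values.

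The kinase that starts mitosis and a cyclin partner of it had the largest log2 fold changes of the members. Cdk1 rose from 2.07, 3.28 and 11.1 CPM in control to 23.5, 46.0 and 88.3 CPM in stroke, 12.0-fold (log2 fold change 3.58, SE 0.43, adjusted p = 5.54e-05). Ccnb2, a B-type cyclin that partners Cdk1, rose from 1.5, 2.57 and 4.48 CPM to 8.88, 28.3 and 57.8 CPM, 11.1-fold (log2 fold change 3.47, SE 0.42, adjusted p = 5.92e-05). The groups did not overlap for either gene, and control 8 (11.1 CPM) held the highest Cdk1 level of the controls. Ccna2 and Ccnb1, the other listed mitotic cyclins, had log2 fold changes of 2.85 and 2.41. Ube2c, which loads ubiquitin for the anaphase-promoting complex, had one of 3.41.

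Kinetochore, passenger complex and spindle genes rose with them. Called kinetochore and checkpoint genes numbered 5 of 6, from Cenpe (2.33) to the checkpoint kinase Bub1 (3.17), and the exception was Bub1b, its relative, at 0.78 (adjusted p = 0.06). All 3 listed genes of the chromosomal passenger complex, which corrects faulty attachments, were called (Aurkb 2.97, Birc5 2.76, Cdca8 2.53). All 5 listed kinesin and spindle genes were called, from Kif11 (1.59) to the spindle assembly factor Tpx2 (2.41). Among the 24 mitosis members, 19 did not overlap between the groups, and 26 of all 42 members did not (background 4.47% of genes).

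Replication members had the smaller median. Mcm5, a subunit of the replicative helicase, stood at 6.41, 9.93 and 13.8 CPM in control and 19.8, 26.7 and 54.7 CPM in stroke libraries (log2 fold change 1.81, SE 0.27, adjusted p = 0.000245). Rrm2, the regulated subunit of the enzyme that makes deoxyribonucleotides, rose from 5.13, 9.99 and 18.9 CPM to 17.6, 42.9 and 122 CPM (log2 fold change 2.34, SE 0.41, adjusted p = 0.000885). Mcm5 levels did not overlap, while for Rrm2 the lowest stroke library (17.6 CPM) lay under the highest control library (18.9 CPM). The other helicase subunits spread from Mcm4 (0.41, adjusted p = 0.0668, not called) and Mcm7 (0.47) to Mcm3 (1.88). Uhrf1, which carries DNA methylation through replication, had the largest log2 fold change of the replication members (2.63). Cdc6, which loads the helicase, and Ccne2 were not called (log2 fold changes 1.36 and 0.54).

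Markers of other cells moved with the pericyte contrast. All 12 microglia markers were called higher in stroke, and their sum ran from 393 to 2181 CPM in control to 2571 to 5371 CPM in stroke libraries. Of 8 fibroblast markers 5 were called higher, with sums of 1717 to 6059 and 4472 to 23694 CPM, and the pericyte marker sum was 12432 ± 4626 CPM (SD, n = 7) in control and 12742 ± 3389 CPM (n = 8) in stroke. Stroke libraries 7 and 10, with mitosis sums of 1159 and 1155 CPM, had the highest fibroblast sums of the group (23694 and 16104 CPM), and their microglia sums were 3064 and 4113 CPM. Stroke 12 came next in fibroblast sum (15805 CPM), with a mitosis sum of 579 CPM. Stroke 1 and 13 had fibroblast sums of 11134 and 11044 CPM and higher mitosis sums than stroke 12 (758 and 706 CPM). Stroke 1 had the highest microglia sum of the stroke libraries (5371 CPM). Among controls the highest microglia sum was that of control 8 (2181 CPM, other controls 393 to 831 CPM). Control 8, which held the highest Cdk1 level of the controls, also had their highest mitosis sum (182.8 CPM). Control 6 had the highest fibroblast sum (6059 CPM) and the lowest mitosis sum (60.8 CPM) of the controls. Mature oligodendrocyte markers were called lower in 9 of 10 cases (15881 to 54666 CPM in control, 7823 to 34999 CPM in stroke) and neuron markers in 7 of 10 (1215 to 3064 and 569 to 1863 CPM). Of the monocyte and border macrophage markers, 2 of 10 were called higher. The part of these cells in the changes was not tested. Ependymal and choroid plexus markers summed to over 500 CPM in control 6 (5154 CPM), stroke 4 (1926 CPM) and stroke 16 (665 CPM). Control 6 was also the library low in pericyte markers (4337 CPM). Without those 3 libraries 38 members were called. Scaling by library totals alone moved the median of all genes to -0.28 and gave 2573 of 6771 called genes higher, against 3440 of 6227 with TMM, while 37 members were called higher and none lower.

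**Figure D3:**
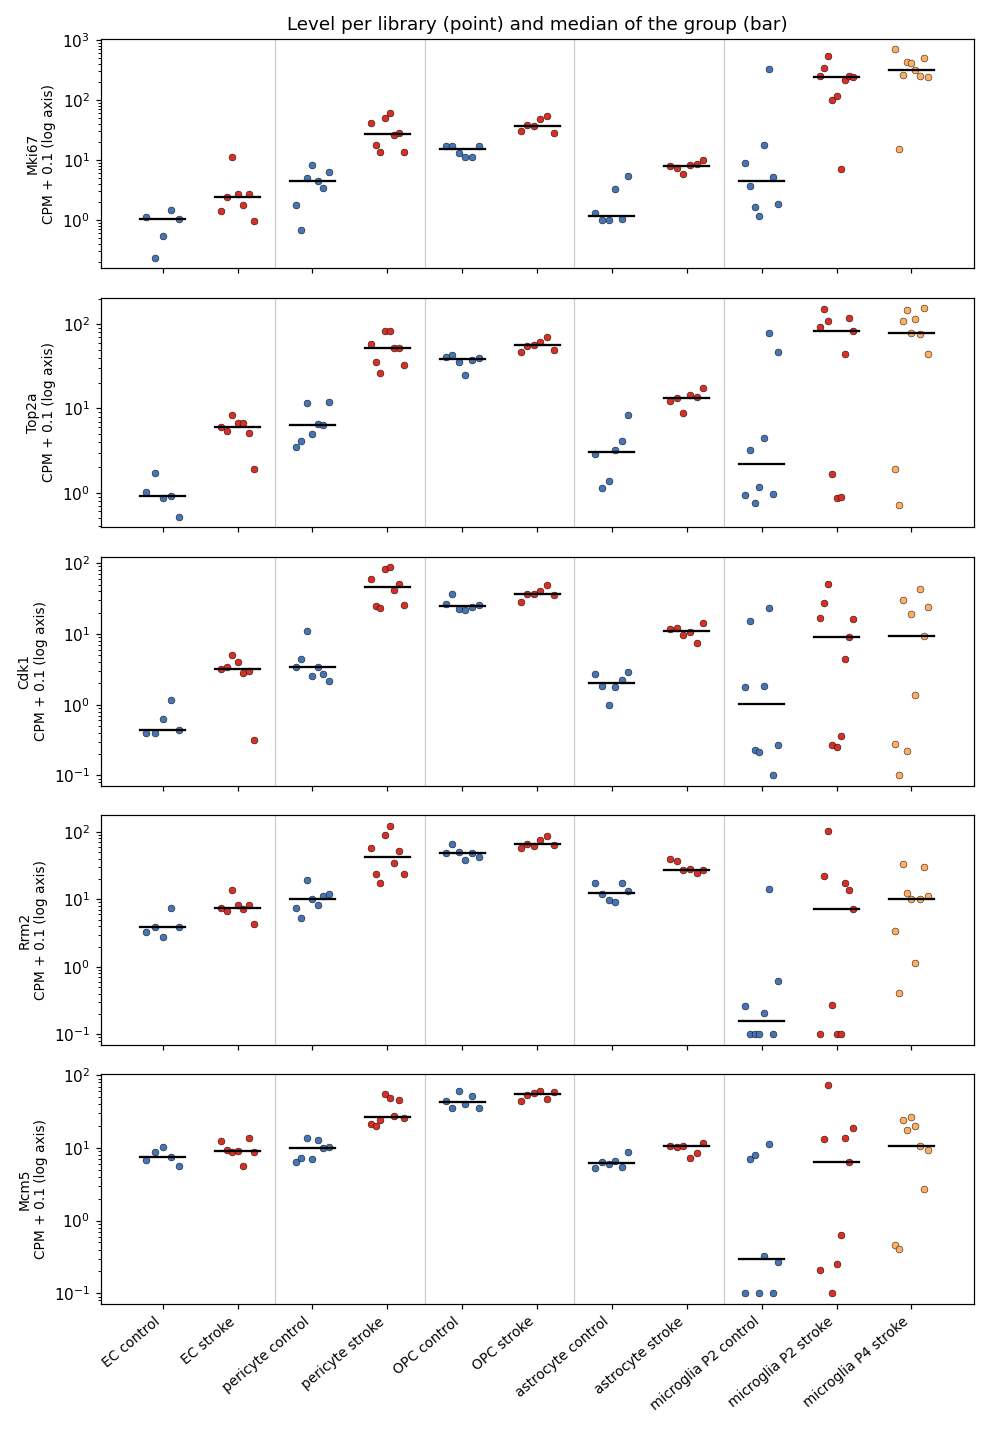
CPM + 0.1 (log axis) of Mki67, Top2a, Cdk1, Rrm2 and Mcm5 in every library (points; blue control, red stroke, orange P4 stroke) with a bar at each group's median. For Mki67 the median rises from 4.28 to 27.0 CPM in pericytes, 14.9 to 37.4 CPM in OPC and 1.07 to 7.95 CPM in astrocytes.

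In astrocyte libraries the mitosis members rose and most replication members did not pass the test. Called mitosis members numbered 18 of 24 (median log2 fold change 1.5) and replication members 5 of 18 (0.31), beside -0.04 over all genes. Cdk1 stood at 0.896, 1.94 and 2.81 CPM in 6 control and 7.48, 11.0 and 14.3 CPM in 6 stroke libraries (log2 fold change 2.47, SE 0.26, adjusted p = 3.41e-05). Ccnb2 stood at 0.422, 1.33 and 2.13 CPM and 4.95, 6.23 and 10.4 CPM (log2 fold change 2.29, SE 0.33, adjusted p = 0.000498). Neither gene overlapped between the groups.

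Mki67 rose from 0.883, 1.07 and 5.27 CPM in control to 5.84, 7.95 and 10.0 CPM in stroke astrocyte libraries (log2 fold change 1.95, SE 0.44, adjusted p = 0.0104), and Top2a from 1.05, 2.94 and 8.29 CPM to 8.77, 13.4 and 17.4 CPM (log2 fold change 1.96, SE 0.41, adjusted p = 0.00736). Control 10 held the highest value of both genes among the controls, just under the lowest stroke library. Of the spindle genes Prc1, which bundles microtubules between the separating chromosomes, was called (1.54), and Kif11, Kif20a, Kif23 and Tpx2 were not. Of the replication members Rrm2 (1.23), Cdc6 (1.78), Uhrf1 (1.17), Gins2 (0.84) and Mcm5 (0.62) were called.

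Rrm2 levels were 8.88, 12.5 and 17.5 CPM in control and 24.8, 27.4 and 39.0 CPM in stroke astrocyte libraries, with adjusted p = 0.000911 and no overlap. Mcm5 levels were 5.26, 6.11 and 8.63 CPM and 7.24, 10.4 and 11.5 CPM (adjusted p = 0.0265), and the groups overlapped. Members without overlap numbered 19 (background 4.18%). Microglia markers were called higher in 11 of 12 cases, with sums of 518 to 701 CPM in control and 1568 to 2401 CPM in stroke, and 3 of 7 tested fibroblast markers were called higher at sums of 17.7 to 30.0 and 31.4 to 43.5 CPM. Neuron markers were called lower in 7 of 10 cases (1917 to 2547 and 494 to 1652 CPM), and of 6 tested monocyte and border macrophage markers 4 were called higher and 1 lower (1.41 to 3.57 and 11.1 to 33.3 CPM). None of the 10 astrocyte markers was called, and the part of the other cells was not tested.

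In OPC libraries, which started from the highest level, the log2 fold changes of the members were small, with little spread. In CPM the order differed. The mitosis sum went from 448 ± 57.3 to 688 ± 117 CPM in OPC and from 58.5 ± 24.3 to 164 ± 21.7 CPM in astrocytes (SD, n = 6 each). It went from 114 ± 36.8 to 666 ± 349 CPM in pericytes (n = 7 and 8) and from 31.1 ± 3.24 to 69.8 ± 20.9 CPM in EC (n = 5 and 7). Called mitosis members numbered 22 of 24 (median log2 fold change 0.61) and replication members 6 of 18 (0.33), beside -0.01 over all genes. Mki67 rose most, from 11.0, 14.9 and 17.3 CPM in 6 control to 28.4, 37.4 and 54.5 CPM in 6 stroke libraries, 2.74-fold (log2 fold change 1.45, SE 0.17, adjusted p = 2.53e-05). Cenpf, a large kinetochore protein, rose from 7.54, 8.68 and 14.1 CPM to 15.7, 19.7 and 31.8 CPM (log2 fold change 1.16, SE 0.19, adjusted p = 0.000538). Neither gene overlapped between the groups, and stroke library 8 was highest for both. That library also had the highest mitosis sum (875 CPM) and the highest astrocyte marker sum (4063 CPM, next 2202 CPM) of the OPC libraries. Its microglia marker sum was 567 CPM, in a stroke range of 565 to 1026 CPM.

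Top2a stood at 25.1, 38.7 and 43.4 CPM in control and 47.0, 55.9 and 70.1 CPM in stroke OPC libraries (log2 fold change 0.61, SE 0.13, adjusted p = 0.00276). Cdk1 stood at 21.9, 24.5 and 36.5 CPM and 27.9, 36.8 and 49.9 CPM (log2 fold change 0.54, SE 0.14, adjusted p = 0.0144). Top2a did not overlap, while control 6 held a Cdk1 level (36.5 CPM) within the stroke range. Ccnb1 (0.49, adjusted p = 0.0758) and Kif20a (0.36, adjusted p = 0.133) were the mitosis members not called.

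For replication in OPC, Rrm2 was called at 38.3, 49.0 and 66.6 CPM in control and 56.6, 64.9 and 86.5 CPM in stroke (log2 fold change 0.48, SE 0.13, adjusted p = 0.0164). Mcm5 was not called, at 35.6, 42.5 and 60.3 CPM and 44.4, 55.3 and 61.4 CPM (log2 fold change 0.26, SE 0.13, adjusted p = 0.184), and both genes overlapped between the groups. Without stroke 8 Rrm2 was not called (adjusted p = 0.0518), and without control 7 Mcm5 was (adjusted p = 0.0406). The other called replication members were Uhrf1, Ccne1, Mcm2, Mcm3 and Mcm7, at 0.53 to 0.32. Pcna and Mcm4 had values just under 0 (-0.17 and -0.01) and were not called. The members without overlap numbered 11 (background 7.21%). Markers of other cells moved here too. All 12 microglia markers (99.4 to 171 CPM in control, 565 to 1026 CPM in stroke), 6 of 7 tested fibroblast markers (725 to 1297 and 900.1 to 1286 CPM) and 7 of 10 astrocyte markers (546 to 828 and 1389.9 to 4063 CPM) were called higher. The fibroblast sum includes Pdgfra, which is also an OPC marker, so in OPC libraries it does not measure fibroblast RNA alone. All 10 mature oligodendrocyte markers were called lower (98527 to 112710.2 and 57303 to 77775 CPM), as were 6 of 10 neuron markers (399 to 1027 and 238 to 430.5 CPM), and the part of these cells was not tested. With library totals alone 35 members were called, the median of all genes moved to 0.11, and 3347 of 4151 called genes were higher against 2133 of 3726 with TMM.

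EC libraries gave the fewest calls of the 4 deeper tables. Called mitosis members numbered 8 of 24 (median log2 fold change 1.38) and replication members 2 of 18 (0.35), beside 0.03 over all genes. Top2a stood at 0.920, 1.61, 0.756, 0.824 and 0.420 CPM in the 5 control libraries and at 1.79, 5.94 and 8.24 CPM in 7 stroke libraries (log2 fold change 2.63, SE 0.38, adjusted p = 0.00771). Cdk1 stood at 0.302, 0.298, 0.521, 1.08 and 0.339 CPM in control and 0.219, 3.08 and 4.98 CPM in stroke libraries (log2 fold change 2.59, SE 0.57, adjusted p = 0.0224). Top2a did not overlap between the groups, whereas Cdk1 overlapped through stroke 14 (0.219 CPM), the lowest of all 12 EC libraries.

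Mki67 was not called in EC by edgeR, at 1.03, 0.133, 0.430, 1.34 and 0.921 CPM in control and 0.875, 2.33 and 11.2 CPM in stroke (log2 fold change 2.08, SE 0.67, adjusted p = 0.0764). Its highest value came from stroke 6, and without that library its log2 fold change was 1.30, while DESeq2 called it with all libraries (adjusted p = 0.00826). The other mitosis members called were Ccna2 (2.28), Ccnb1 (2.06), Ccnb2 (2.18), Plk1 (2.17), Ube2c (2.06) and Nuf2 (1.55). All 4 listed genes of the mitotic cyclins and their kinase thus passed. Members without overlap numbered 4 (background 1.85%).

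Hells, a chromatin remodeller, and Cdc45, a helicase component, were the replication members called in EC (0.76 and 0.72). Mcm5 stood at 6.77, 8.83, 10.2, 7.52 and 5.53 CPM in control and 5.64, 9.05 and 13.7 CPM in stroke (log2 fold change 0.31, SE 0.21, adjusted p = 0.421), and the groups overlapped. Rrm2 stood at 3.22, 3.79, 2.68, 7.43 and 3.81 CPM and 4.21, 7.33 and 13.6 CPM (log2 fold change 0.92, SE 0.29, adjusted p = 0.0722), also with overlap, and DESeq2 called it (adjusted p = 0.0160). E2f1 and Ccne1 had negative values that were not called (-0.45 and -0.30, adjusted p = 0.116 and 0.267).

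The EC count depended on which libraries entered the fit. Without control 7 it was 3 members, without control 9 it was 5, and DESeq2 called 18. EC libraries numbered up to 6 had totals of 123424129 to 142944063 counts and those above 6 totals of 57569368 to 80697263. Neither class alone gave a called member (2 controls and 3 stroke libraries, 36 of 42 members positive; 3 and 4 libraries, 39 positive), and neither gave a called gene of any kind (edgeR, 1748 and 4156 genes at an unadjusted p under 0.05). Cdk1 itself was not called without control 7 (adjusted p = 0.0688). Within the classes Top2a had log2 fold changes of 2.36 and 2.90 and Cdk1 of 3.65 and 1.91, and with the class as a covariate 9 members were called. Microglia markers were called higher in 6 of 12 cases (132 to 205 CPM in control, 230.3 to 408 CPM in stroke), neuron markers lower in 6 of 10 (6744 to 9199 and 4553 to 6011 CPM). Of the endothelial markers 3 of 12 were called higher, with sums of 2245 to 3789 and 3231 to 5307 CPM, and of the monocyte and border macrophage markers 3 of 9 tested. The part of these cells was not tested. Library totals alone gave 940 of 1194 called genes higher, against 749 of 1309 with TMM, a median of 0.10 over all genes and 11 members called.

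Whether the stroke difference on the log2 scale was unequal among the 4 cell types was tested in 1 fit of 51 libraries. The interaction was called for 28 of 42 members (background 14.3% of 25257 genes), 16 of mitosis and 12 of replication. The pericyte difference exceeded that of OPC for 31 members (background 5.17%), that of EC for 19 (background 7.10%) and that of astrocytes for 13 (background 4.43%), and no member was called the other way. Against astrocytes, 10 of 18 replication members and 3 of 24 mitosis members were called. With microglia P2 libraries added to the fit, 6 members were called.

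**Figure D4:**
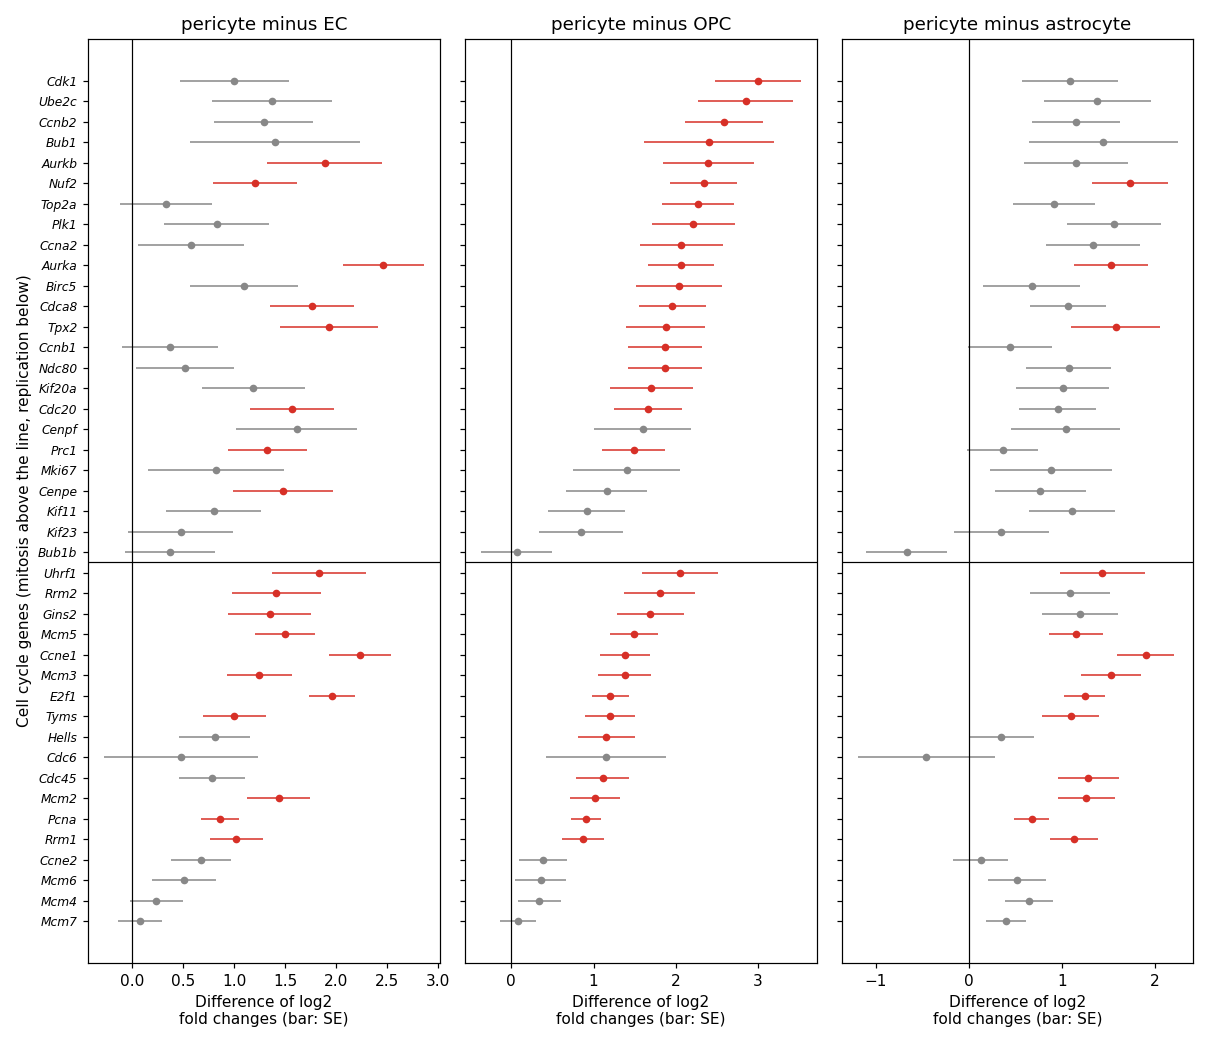
Difference between the pericyte log2 fold change and that of EC, OPC or astrocytes for each member (points, bars for the standard error; red where the adjusted p was under 0.05), with mitosis members above the line. Red points number 19 against EC, 31 against OPC and 13 against astrocytes, and all lie above 0.

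E2f1, the transcription factor that starts replication gene expression, had the smallest p of the members (adjusted p = 1.51e-07). It stood at 9.60, 12.1 and 13.9 CPM in control and 21.8, 32.6 and 46.1 CPM in stroke pericyte libraries, without overlap, and at 25.9, 26.7, 38.0, 37.5 and 23.7 CPM and 16.0, 21.8 and 29.6 CPM in EC. Its difference between pericytes and EC was 1.96 (SE 0.23) on the log2 scale. Ccne1, the cyclin of the start of replication, followed (adjusted p = 1.69e-06), with differences of 2.23 (SE 0.30) from EC and 1.90 (SE 0.31) from astrocytes. E2f1 in stroke pericyte libraries lay within or above the EC range, and in pericyte controls below it.

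Aurka, the centrosomal kinase (adjusted p = 5.07e-05), differed by 2.47 (SE 0.40) from EC, where it was not called (0.24). Nuf2, of the kinetochore (adjusted p = 0.000288), differed most from OPC, by 2.34 (SE 0.41), and Mcm5 (adjusted p = 0.000307) by 1.5 (SE 0.29) from EC. The largest p belonged to Kif23, a kinesin of cell separation (0.598), and to the helicase subunits Mcm6 (0.487) and Mcm7 (0.482). Mki67 was not called either (adjusted p = 0.383), and its difference between pericytes and OPC was 1.41 (SE 0.65).

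Microglia libraries gave no called member by edgeR, and with standard errors of 0.90 to 1.57 on the log2 scale for Mki67, Top2a, Cdk1, Mcm5 and Rrm2, a missing call does not show that levels were equal. Of the 37 members tested, 0 were called between P2 stroke and P2 control (background 0.00756%, 1 gene of 13225, which fell), 13 had an unadjusted p under 0.05 (background 10.1% of genes) and DESeq2 called 8. The median log2 fold change of the members was 2.42, beside 0.05 over all genes. Mki67 stood at 1.06, 4.37 and 332 CPM in 8 P2 control and 7.08, 238 and 551 CPM in 9 P2 stroke libraries (log2 fold change 2.32, SE 0.90, adjusted p = 0.387). All but 1 of the control libraries lay at or under 17.7 CPM, and control 12 (332 CPM) lay among the stroke libraries. An exact two-sided permutation test of log2(CPM + 1), added after seeing the data, gave a difference of 4.24 with p = 0.00214, or 0.0214 adjusted over 10 tests of 5 genes in 2 comparisons. By the same exact permutation test the adjusted p of Top2a (0.318), Cdk1 (0.482), Mcm5 (0.495) and Rrm2 (0.318) missed the threshold, and between P4 and P2 stroke those of the 5 genes were 0.659 to 0.921. Without control 12 edgeR called 2 members, Mki67 among them (log2 fold change 5.35, adjusted p = 0.00134).

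Top2a stood at 0.650, 2.08 and 77.9 CPM in P2 control and 0.755, 83.2 and 154 CPM in P2 stroke microglia (log2 fold change 1.99, SE 1.08, adjusted p = 0.537). Cdk1 stood at 0, 0.921 and 23.2 CPM and 0.151, 9.10 and 50.4 CPM (log2 fold change 1.38, SE 1.34, adjusted p = 0.753). Both genes had libraries near 0 and libraries far above in each group. Mcm5 and Rrm2 had 0 counts in 3 and 4 of the 8 control libraries, at 0, 0.197 and 11.4 CPM and 0, 0.0553 and 14.0 CPM, against 0, 6.37 and 74.1 CPM and 0, 7.19 and 102 CPM in P2 stroke. Their adjusted p were 0.631 and 0.485, and the groups overlapped. Cdc20, Aurka, Kif20a, Ccne1 and Cdc6 did not pass the filter on low counts.

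P4 stroke was set against P2 stroke, since P4 has no control group, and the comparison shares the P2 stroke libraries with the one before. It gave 0 called members of 37 by edgeR (background 0.00756%), 1 at an unadjusted p under 0.05 (background 11.5%) and 0 by DESeq2. Mki67 stood at 15.3, 318 and 704 CPM in 9 P4 libraries (log2 fold change 0.59, SE 0.82, adjusted p = 0.848), and Top2a at 0.613, 78.7 and 155 CPM (log2 fold change 0.26, SE 1.00, adjusted p = 0.952). Cdk1, Mcm5 and Rrm2 stood at 0, 9.20 and 43.4 CPM, 0.307, 10.6 and 26.4 CPM and 0.307, 10.1 and 33.1 CPM. The ranges of all 5 genes overlapped those of P2 stroke. Per kilobase of exon Mki67 had the highest mean level of the members in both stroke groups of microglia (23.1 and 34.6 CPM per kilobase), where its rank in the EC, pericyte, OPC and astrocyte groups was 26 to 39.

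Low mitosis sums in the stroke groups of microglia went with few detected genes. Libraries with under 10000 genes at 10 or more counts numbered 7, and 6 of them had mitosis sums of 11.6 to 155 CPM, the exception being P4 stroke 18 with 812 CPM. Among the other libraries, P2 stroke ran from 531 to 1371 CPM, P4 stroke from 608 to 1389 CPM and P2 control from 5.07 to 627 CPM. With the 7 libraries left out, 0 members were called in either comparison (edgeR). The part of detection in the differences was not tested.

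**Figure D5:**
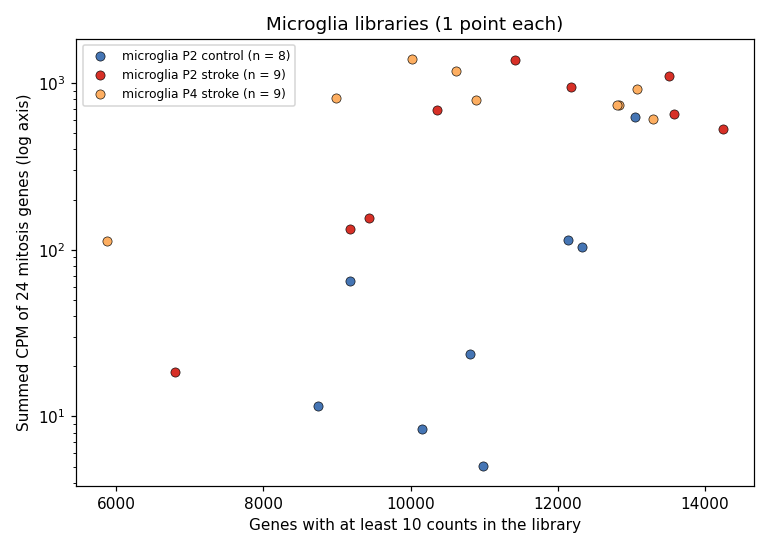
Summed CPM of the 24 mitosis genes (log axis) against the number of genes with at least 10 counts in each microglia library (blue P2 control, red P2 stroke, orange P4 stroke). Control 12, at 627 CPM, lies with the stroke libraries, and the P2 stroke library with 6800 genes is the lowest of the stroke groups at 18.4 CPM.

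Genes upstream of the members were called in some cell types and not in others, a difference that was not tested. Of all genes, 15.9% were called higher in pericytes, 11.7% in OPC, 5.63% in astrocytes and 3.57% in EC. Cdkn1a, the inhibitor p21, rose in pericytes from 15.9 ± 10.2 CPM (SD, n = 7) to 142 ± 49.3 CPM (n = 8; log2 fold change 3.16, SE 0.36, adjusted p = 3.12e-05) and in OPC from 19.7 ± 7.67 to 43.8 ± 10.1 CPM (n = 6 each, adjusted p = 0.00167). It was not called in astrocytes (203 ± 85.9 and 246 ± 69.3 CPM, adjusted p = 0.567) or EC (275 ± 44.1 and 366 ± 56.3 CPM, adjusted p = 0.0597), whose control levels were higher. Of the CDK inhibitors tested, 5 of 7 rose in pericytes, 3 of 6 in OPC and none in EC (2 at an unadjusted p under 0.05) or astrocytes (0) by edgeR. Pericytes also gained Cdkn2c (1.21) and Cdkn2b (2.21), and OPC Cdkn2b (1.25) and Cdkn1c (1.22), while in astrocytes Cdkn2b had the smallest p of the list (0.65, adjusted p = 0.362).

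Ccnd1, the D-type cyclin that carries growth signals, rose 3.36-fold in pericytes (19.9 ± 8.65 to 66.7 ± 12.4 CPM, adjusted p = 0.000115) and 4.54-fold in astrocytes (11.1 ± 4.44 to 50.6 ± 16.1 CPM, adjusted p = 0.000129). It stood at 202 ± 17.9 and 200 ± 29.4 CPM in OPC (adjusted p = 0.928) and 18.6 ± 3.74 and 25.1 ± 3.60 CPM in EC (adjusted p = 0.09). Of 6 D-type cyclins and their kinases, 4 rose in pericytes (background 15.9%), 3 in OPC (11.7%), 3 in astrocytes (5.63%) and 2 in EC (3.57%). Cdk6, the kinase partner, was called in all 4 types, with log2 fold changes of 1.33 in pericytes, 2.07 in astrocytes, 0.67 in EC and 0.51 in OPC. In microglia neither gene was called between P2 stroke and P2 control, at 12.5 ± 12.6 and 94.4 ± 94.3 CPM for Ccnd1 (adjusted p = 0.238) and 25.5 ± 49.5 and 169 ± 239 CPM for Cdkn1a (adjusted p = 0.334). Between P4 and P2 stroke their adjusted p were 0.766 and 0.997.

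Of 18 genes of pocket proteins, E2F, MuvB and FoxM1, 9 rose and 2 fell in pericytes, 4 rose and 1 fell in OPC, 2 rose in astrocytes and 0 were called in EC by edgeR (2 at an unadjusted p under 0.05). Background shares called higher were 15.9%, 11.7%, 5.63% and 3.57% of all genes, in the same order. Called lower over all genes were 2787 of 21694 in pericytes and 1593 of 18167 in OPC. Foxm1 (1.60), E2f2 (2.42) and Mybl2, which encodes B-Myb (1.85), led in pericytes, and Rbl2 and Tfdp2, named after their values were seen, fell by 0.51 and 0.49 on the log2 scale. In OPC Mybl2 (0.93) and E2f2 (0.72) rose and the MuvB subunit gene Lin52 fell by 0.25 on the log2 scale. In astrocytes E2f2 (2.24) and the pocket protein gene Rbl1 (0.81) rose, and in EC Rbl1 had the smallest p (0.57, adjusted p = 0.0776).

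Mitosis genes outside the list also rose. Of 40 such genes 32 rose and 1 fell in pericytes (median log2 fold change 1.91), 22 rose in OPC (0.45), 15 in astrocytes (1.15) and 5 in EC (0.72). Among all genes 15.9%, 11.7%, 5.63% and 3.57% were called higher, in the same order, and 2787 of 21694 were called lower in pericytes. They included Nusap1, a spindle protein, in pericytes (2.42) and EC (1.26), Ckap2 in OPC (0.54) and EC (1.01), the spindle protein gene Hmmr in EC (1.99) and the kinetochore gene Spc25 in astrocytes (1.43). Separase (Espl1, 1.06) and the centromeric histone Cenpa (0.84) rose in OPC. The gene that fell in pericytes was Anln, an actin-binding protein of cell separation, by 0.92 on the log2 scale, and it is named here after its value was seen. Mature oligodendrocyte markers fell in the same contrast, and their part in the value of Anln was not tested.

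Replication genes outside the list were called as well. Of 30 such genes 15 rose in pericytes (median log2 fold change 0.66), 9 rose and 2 fell in OPC (0.11), 5 rose in astrocytes (0.22) and 2 in EC (0.13). The shares of all genes called higher were 15.9%, 11.7%, 5.63% and 3.57%, in the same order. Medians over all genes were -0.08, -0.01, -0.04 and 0.03. Cdt1, which licenses origins, and Gmnn, its inhibitor, both rose in pericytes (2.11 and 1.69), with the ligase Lig1 (1.17). Dbf4, the activator of the origin-firing kinase, rose in OPC (0.70) and astrocytes (1.03), where the origin factor Mcm10 had the smallest p (2.10). Thymidine kinase Tk1 rose in EC (1.36) and OPC (0.51), and the fork protein gene Timeless in EC (0.62). The OPC genes that fell, named after their values were seen, were Gins4 by 0.25 and Rpa3 by 0.37 on the log2 scale. In OPC 1593 of 18167 genes tested were called lower.

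Calls among growth arrest and repair genes are read beside the same background shares of all genes called higher (15.9% in pericytes, 11.7% in OPC, 5.63% in astrocytes and 3.57% in EC). Called lower were 2787 of 21694 genes in pericytes, 1593 of 18167 in OPC, 880 of 18796 in astrocytes and 560 of 20995 in EC. Of 14 p53 target and growth arrest genes, 3 rose in pericytes, led by the stress gene Sesn2 (1.16), and 3 rose and 2 fell in OPC, where Gadd45g (1.74) and Gadd45b (1.71) rose and Plk3 fell by 0.86 and Phlda3 fell by 0.54 on the log2 scale. In astrocytes Plk2 was the single call of that list and fell by 1.09 on the log2 scale, and EC gave 0 calls by edgeR (4 at an unadjusted p under 0.05), the smallest p being that of Gadd45g (0.37, adjusted p = 0.0598). Of 13 replication stress and recombination genes, 6 rose and 1 fell in pericytes, 4 rose in OPC, 1 rose in astrocytes and 1 fell in EC. In EC the call was Fancd2, of the crosslink repair pathway, which fell by 0.45 on the log2 scale and in pericytes fell by 0.94. None of these lists gave a call in either microglia comparison by edgeR, where 1 to 6 genes a list between P2 stroke and P2 control and 0 to 2 between P4 and P2 stroke had an unadjusted p under 0.05.

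Some members share exon sequence with neighbours or have named pseudogenes, and without strand, which the labels do not mention, reads cannot be divided between overlapping genes. On GRCm38 the overlap covered 67.3% of the exons of Gins2 (with Gse1), 29.3% of Kif20a (Cdc23), 22.8% of Ube2c (Tnnc2) and 17.4% of Ccne2 (Ints8). Ccnb1, Ccnb2, Pcna and Tyms have named pseudogenes, so their values are less certain. The genes with values throughout are protein coding, Mki67 (ENSMUSG00000031004) at chr7:135689784-135716361 (- strand), Top2a (ENSMUSG00000020914) at chr11:98992943-99024189 (- strand), Cdk1 (ENSMUSG00000019942) at chr10:69335146-69352938 (- strand), Mcm5 (ENSMUSG00000005410) at chr8:75109569-75128439 (+ strand) and Rrm2 (ENSMUSG00000020649) at chr12:24708241-24714146 (+ strand). Of these 5, Top2a alone had exon overlap, of 1.35% (Gm23451).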

How the data were processed

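Bulk RNA of mouse cerebral white matter cell types was extracted with the NucleoSpin RNA XS kit and made into libraries with the SMART-Seq v4 kit, per the labels' protocols. The deposited values are raw, unnormalized counts for 52636 Ensembl genes in 77 libraries, split over 5 tables by cell type. The submitters' processing notes name bcl2fastq, STAR and HTSeq and the build GRCm38, while the column headers of the tables carry the word hisat, so the aligner is not certain. The sources used here state neither strand-specific counting nor molecular identifiers.

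Groups follow the labelled cell type and condition. Each table was fitted with edgeR 4.0.16 in R 4.3.3 (TMM scaling, filterByExpr, quasi-likelihood F test, Benjamini-Hochberg adjustment over all genes tested, threshold 0.05). The 3 microglia groups shared 1 fit, and the interaction was fitted over the 51 EC, pericyte, OPC and astrocyte libraries. Standard errors are the absolute log2 fold change divided by the square root of F. The fit was tested on simulated data, and a missing call does not show that a gene was unchanged. Alternatives were DESeq2 1.42.0, other scalings, no filter, and leaving out single libraries or sets of libraries. Symbols came from the reference tables, with 233 genes unmatched.

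The members, gene lists and tests were chosen with earlier results of these data known. Values in every library or their range are given for Mki67, Top2a, Cdk1, Mcm5 and Rrm2 and for the called members with the largest changes, provided they averaged 1 CPM. Of each pathway list up to 3 called genes are named by p, with Cdkn1a and Ccnd1 in each comparison. For the interaction, the 5 smallest and 3 largest p are named. Promoters and their coordinates are from RefSeq on GRCm38.p6.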

Additional observations from a re-analysis of the deposited data

Results flagged for a closer look

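Single libraries stood far above the rest of their group in 11 of 83 sets of values examined, each of 1 gene or sum in 1 group. The rule, Dixon's ratio of gap to range, has a nominal rate of 5%, or 4.15 sets. That rate assumes normally distributed values and independent sets. These sets reuse the same libraries, so 4.15 is not the count to be expected by chance here. In microglia, P2 control 12 had a mitosis sum of 627 CPM (the other controls 5.07 to 114 CPM), an Mki67 level of 332 CPM (others up to 17.7 CPM) and an Rrm2 level of 14.0 CPM (others up to 0.519 CPM). P2 stroke 6 had an Mcm5 level of 74.1 CPM (others up to 18.5 CPM) and an Rrm2 level of 101.6 CPM (others up to 22.2 CPM). In EC, stroke 6 was high for Mki67 (11.2 CPM, others up to 2.64 CPM) and Rrm2 (13.6 CPM, others up to 8.22 CPM), and control 9 for Cdk1 (1.08 CPM, others up to 0.521 CPM) and Rrm2 (7.43 CPM, others up to 3.81 CPM). Cdk1 was high in pericyte control 8 (11.1 CPM, others up to 4.28 CPM) and in OPC control 6 (36.5 CPM, others up to 26.8 CPM).

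The stroke difference was unequal among EC, pericytes, OPC and astrocytes, by edgeR's interaction test over all genes, for E2f1 (adjusted p = 1.51e-07), Ccne1 (1.69e-06), Aurka (5.07e-05), Nuf2 (0.000288), Mcm5 (0.000307), Cdk1 (0.000503), Top2a (0.00129) and Rrm2 (0.0111). Each of these 8 genes had its largest log2 fold change in pericytes.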

How the results depend on the processing

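The count of EC members called was the least stable. It was 18 with DESeq2, 0 in each of the numbered classes of libraries and 3 to 12 when 1 library was left out, against 10. In microglia P2 it was 8 with DESeq2 and 0 to 2 with 1 library left out, against 0, and the interaction gave 6 with microglia P2 libraries added, against 28. The cause was not tested. With 1 library left out, pericytes gave 37 to 40 members called, OPC 23 to 31, astrocytes 22 to 28 and microglia P4 against P2 stroke 0. DESeq2 called 38, 31 and 27 in pericytes, OPC and astrocytes and 30 in the interaction, and without a filter on low counts the counts were 37, 27, 25 and 28, with 8 in EC.

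Between P4 and P2 stroke some directions turned. With the libraries of few detected genes left out Cdk1 was at -0.20, against 0.03, and with 1 library left out it ran from -0.40 to 0.60, Mcm5 from -0.42 to 0.92 and Rrm2 from -0.87 to 0.71. None of these values was called. Among single-gene results, other than with 1 library left out, 171 kept their direction and side of the threshold, 4 fell short of it, 2 passed it and 1 turned. Over all genes DESeq2 called 2844 in EC (edgeR 1309, or 862 without a filter), 304 in microglia P2 and 218 in P4 against P2 stroke (edgeR 1 each).

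No paired analysis was possible because compared groups share no library numbers. Microglia libraries had 22 to 42 members with a count, so that a value of 0 there does not show absence. The alternatives that left out few-gene or ependymal-marked libraries, or split EC by number, were chosen after seeing the data.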
